A study of Mus musculus with 4 samples.

Results

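The proteasome is the protease complex that degrades proteins tagged with ubiquitin, and its subunit genes were compared between young and aged satellite cells, which are the stem cells that repair skeletal muscle. The members were the genes whose symbols match the Psma, Psmb, Psmc, Psmd or Psme families followed by a number and whose probe sets the platform annotation assigns to that gene alone. This gave 42 genes, measured by 88 probe sets, among 18193 genes in all. They were grouped as 8 core alpha subunits, 8 core beta subunits, 3 immunoproteasome subunits, 6 ATPases, 14 lid and base genes and 3 activators. The lid and base genes include Psmd5, Psmd9 and Psmd10, which are chaperones of base assembly and not subunits of the finished particle. Psme2, which encodes a partner of Psme1 in the PA28 activator, had no probe set of its own here and is not reported.

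Hindlimb satellite cells of the C57BL/6J strain were obtained by sorting on syndecan-4, a surface proteoglycan, from young mice of 3 to 6 months and from aged mice of 20 to 25 months. No treatment or genetic change is named for either age, and the labels give no sex. Each array holds the RNA of 1 pool of mice (4 to 8 per pool in the series text, 6 to 8 in the sample labels), with 2 pools per age and 4 Affymetrix arrays in all. The young pools are called young 1 and young 2 and the aged pools aged 1 and aged 2, with the numbers of the labels.

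The core particle is a barrel built of outer alpha rings and inner beta rings, and the active sites lie on beta subunits inside the barrel. The regulatory particle caps the barrel. Its ring of ATPases unfolds substrates and opens the gate of the alpha ring, while its lid removes ubiquitin chains. In muscle the ubiquitin-proteasome system carries out much of the turnover of contractile proteins, and in cells exposed to interferon specialised beta subunits replace the constitutive catalytic ones to form the immunoproteasome.

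Values are log2 (the base is assumed) and relative to the median of each probe set over the 4 arrays, so a value above 0 means more signal than that median. No level can be read from them, and no gene can be called abundant or absent. A gene's value is the mean of its probe sets. The ± after a gene's difference is the standard error of the limma fit, with n = 2 pools per age. Adjusted p-values are Benjamini-Hochberg values from limma over all 18193 genes. In RNA from pooled cells, fewer cells that express a gene and less RNA per cell cannot be told apart.

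Most proteasome genes were lower in the aged pools, by a modest amount in the middle of the group and by up to 4.48-fold at its extreme. Of the 42 genes, 34 had a lower mean in aged cells and 8 a higher one, and the median difference was -0.62 on the log2 scale, a 1.53-fold lower value. Over all genes 46.2% had a lower mean and the median difference was 0.05. Without aged replicate 2, 28 of the 42 proteasome genes were lower. In 22 of the 42 genes both aged pools lay below both young pools, against 16.9% of all genes, and in 3 genes (Psmb11, Psmd1 and Psmd9) both lay above, against 19.9% of all genes. At an unadjusted p under 0.05 with limma, 11 proteasome genes were lower, against a background of 6.19% of all genes, and 1 was higher, against 2.85%. None of the 42 passed the adjusted threshold of 0.05, and nor did any of the 18193 genes (0%), of which 1645 (9.04%) had an unadjusted p under 0.05 in either direction. The smallest adjusted p of a proteasome gene was 0.196, that of Psmd8 with limma. When limma was fitted with a variance trend, 221 genes passed the adjusted threshold and 0 of them were proteasome genes. The count of 11 lower genes was 4 without young replicate 1, 5 without young replicate 2, 5 without aged replicate 2 and 11 without aged replicate 1. The 1 higher gene became 0 without young replicate 1, young replicate 2 or aged replicate 2, and 2 without aged replicate 1.

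**Figure D1:**
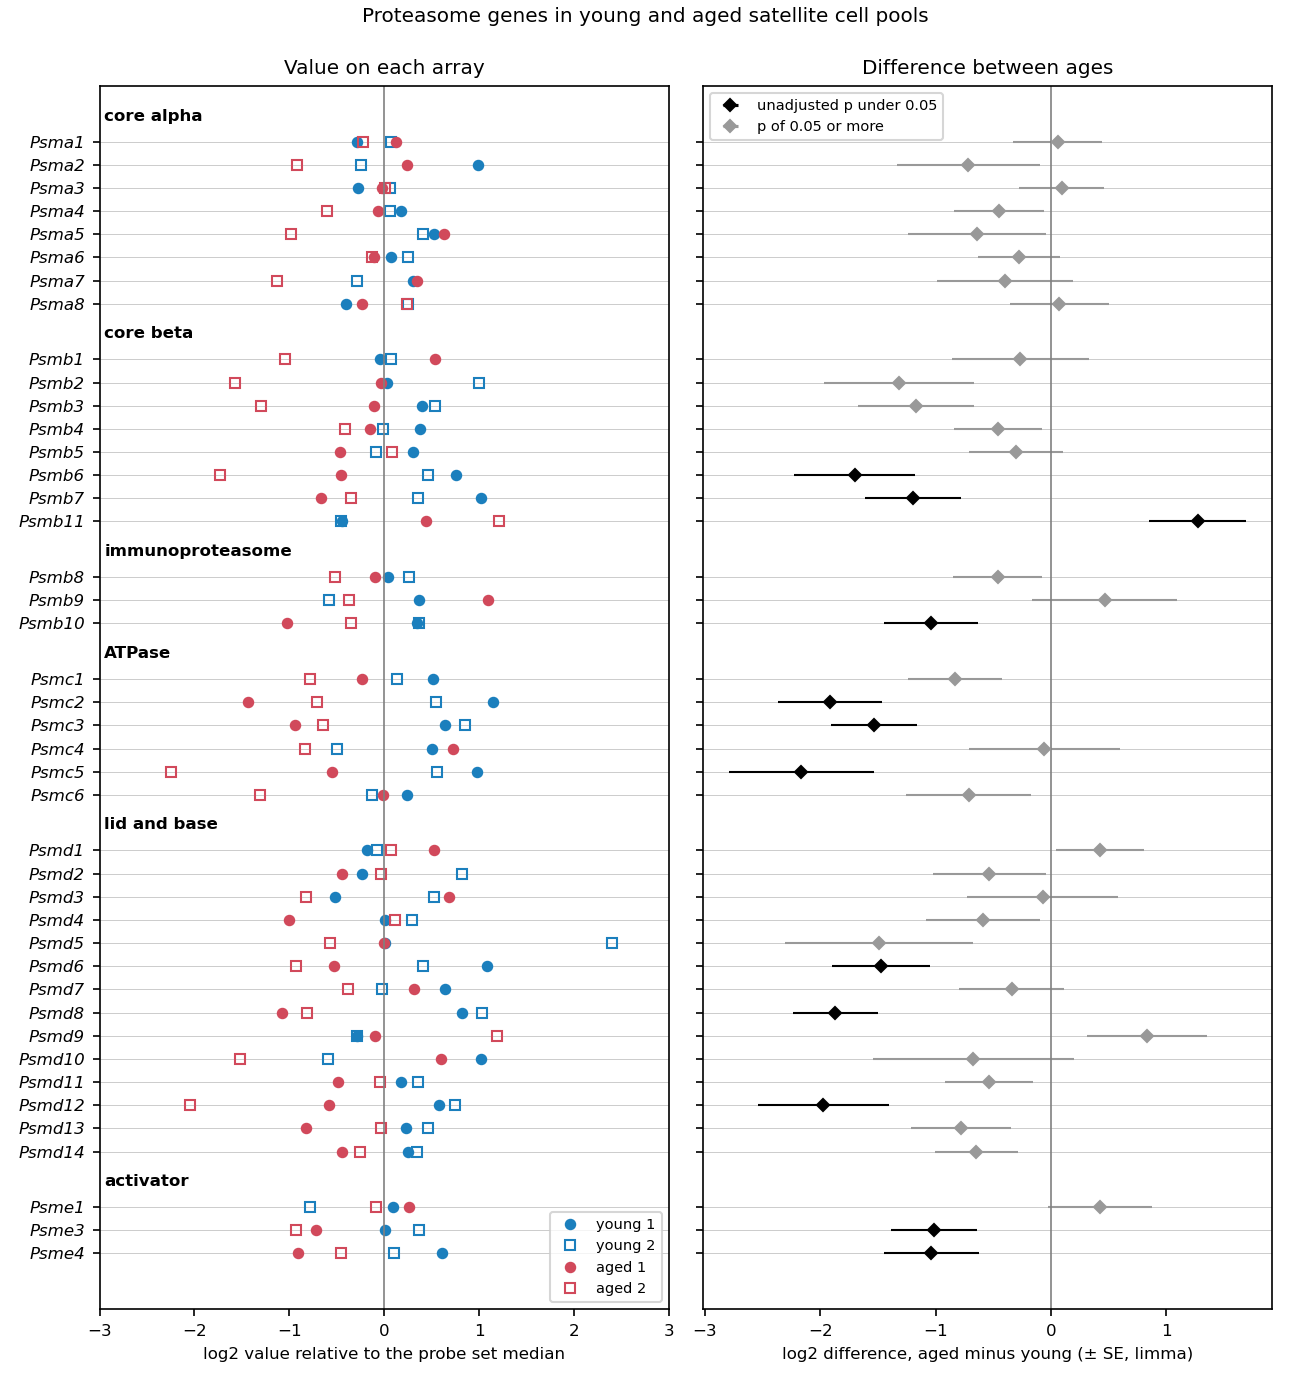
Left, the log2 value of each proteasome gene on each of the 4 arrays (blue, young; red, aged; filled circles, pools numbered 1; open squares, pools numbered 2). Right, the difference aged minus young with its standard error from limma, black where the unadjusted p was under 0.05. The differences run from -2.16 for Psmc5 to 1.27 for Psmb11, and 34 of 42 lie below 0.

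The groups differed in how many members were lower and in how far apart the ages lay. All 6 ATPases were lower, with a median of -1.18. The core beta group had 7 of 8 lower (median -0.81), the lid and base group 12 of 14 (median -0.62) and the core alpha group 5 of 8 (median -0.34). Of the 3 immunoproteasome genes 2 were lower (median -0.46), as were 2 of the 3 activators (median -1.01). Whether the groups differ from each other was not tested. Group medians on the arrays were 0.58 and 0.34 in young 1 and young 2 for the ATPases, and -0.39 and -0.81 in aged 1 and aged 2. For core alpha they were 0.12 and 0.07 in the young pools, 0.05 in aged 1 and -0.41 in aged 2, so aged 2 lay farthest from the rest in that group.

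**Figure D2:**
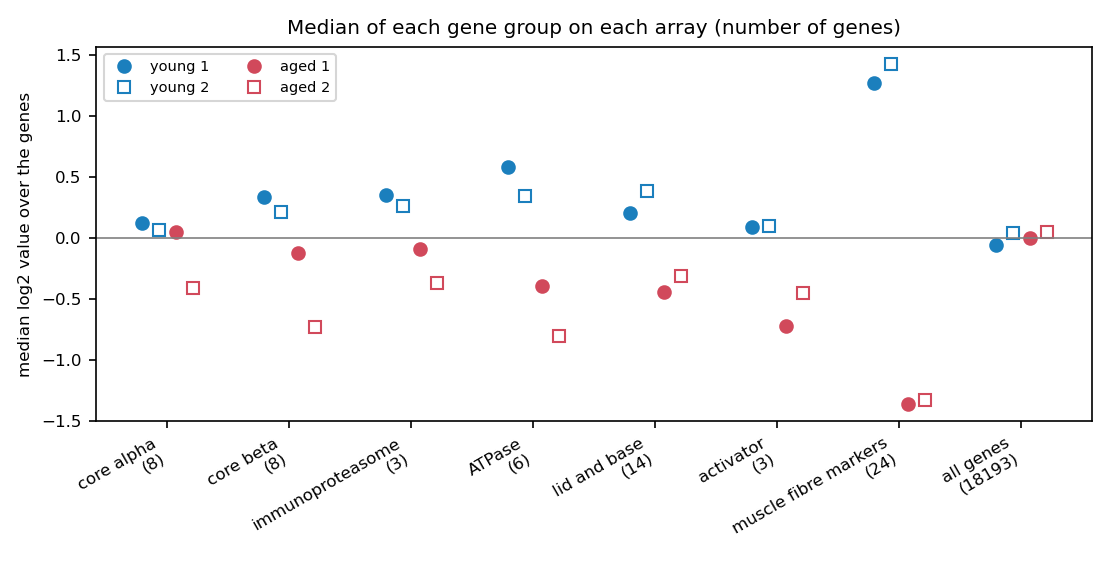
Median log2 value of each proteasome group, of muscle fibre markers and of all genes on each array (symbols as in the plot of single genes; the number of genes stands under each name). Both aged pools lie below both young pools in all 6 proteasome groups, narrowly so for aged 1 in core alpha, and the gap is widest for the fibre markers.

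The aged pools also held less signal of muscle fibre genes. All 24 fibre markers were lower, with a median difference of -2.92 (7.58-fold), against 46.2% of all genes with a lower mean. None of the 24 overlapped between ages, against 16.9% of all genes that were lower without overlap. The marker lists were chosen with earlier results of these data known, so these shares are not independent evidence. The smallest p-values were those of the calcium release channel Ryr1 (-4.45 ± 0.42), the thin filament protein Neb (-4.03 ± 0.41) and the Z-disc protein Myoz1 (-4.55 ± 0.49), whose adjusted p in limma was 0.0998. The fibre list's medians were 1.27 and 1.43 on the young arrays and -1.36 and -1.33 on the aged ones. Its part in the proteasome differences was not tested. Of the other marker lists, 9 of 14 satellite cell genes were higher (median 0.10), 8 of 9 T cell genes higher (median 0.65), 6 of 6 B cell genes higher (median 0.88), 9 of 11 macrophage genes lower (median -1.07), 8 of 10 endothelial genes lower (median -0.37), 6 of 7 fibro-adipogenic progenitor genes higher (median 0.52) and 8 of 8 pericyte and smooth muscle genes higher (median 1.38). With 1 array left out, these medians ran from 0.16 to 0.42 for satellite cell, 0.39 to 1.77 for T cell, 0.41 to 1.36 for B cell and -1.21 to -0.60 for macrophage genes. They ran from -0.56 to -0.21 for endothelial, 0.32 to 0.70 for fibro-adipogenic progenitor and 0.84 to 1.60 for pericyte and smooth muscle genes. The values farthest from the reported ones came without young replicate 1 for satellite cell and T cell genes, without either young replicate for B cell genes, without aged replicate 1 for macrophage and pericyte genes, without young replicate 1 or aged replicate 2 for endothelial genes and without young replicate 1 for progenitor genes. Of the satellite cell genes 35.7% were lower, against 46.2% of all genes. Their smallest p-values in limma were those of Pax7 (2.31 ± 0.36), Myf5 (2.56 ± 0.63) and Sdc4 (1.22 ± 0.53), the gene of the sorted syndecan-4. In these 3 genes both aged pools lay above both young pools, against 19.9% of all genes, and the other 11 overlapped. At an unadjusted p under 0.05 in limma, 2 of the 14 were higher, against 2.85% of all genes, and 0 were lower. The part of these other lists in the results was not tested either.

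Promoter sequence was available for 35 of the 42 genes, in the RefSeq table of build GRCm38.p6 (250 bases before to 50 after the annotated start). The antioxidant response element is the motif bound by Nfe2l1, the transcription factor that raises proteasome genes when proteasome activity falls, and by its relative Nfe2l2. Its core, searched as TGANNNNGC on both strands, was present for 20 of the 35 genes (57.1%) and for 45.0% of all 27025 genes in the table. The median difference was -0.55 over the 20 genes with a match and -0.65 over the 15 without. The core of the interferon-stimulated response element, searched on both strands as a pair of GAAA runs with any 2 bases between them, was present for 4 of 35 genes (11.4%; Psmb3, Psmd4, Psmd9 and Psme1) and for 4.0% of all genes. The median difference was -0.08 over these 4 genes, which ran from -1.17 for Psmb3 to 0.84 for Psmd9, and -0.65 over the 31 without. The CCAAT box, searched as CCAAT on both strands, was present for 14 of 35 (40.0%) and for 41.1% of all genes, with a median difference of -0.62 with a match and -0.64 without. A match describes letters in the window and shows no binding.

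The 250 bases before the start are printed for 5 genes that span the range of differences, with matches to the antioxidant and interferon cores in capitals and all 5 on the plus strand. Psmc5 (chr11:106255935-106256184), the gene with the lowest difference, has neither core there. Psmd12 (chr11:107479278-107479527) and Psmb6 (chr11:70525107-70525356) were also lower and have 2 and 1 matches to the antioxidant core. Psmb11 (chr14:54625060-54625309) and Psmd9 (chr5:123227940-123228189) were higher in aged cells and each have 1 such match, and Psmd9 also has the interferon core.
Psmc5: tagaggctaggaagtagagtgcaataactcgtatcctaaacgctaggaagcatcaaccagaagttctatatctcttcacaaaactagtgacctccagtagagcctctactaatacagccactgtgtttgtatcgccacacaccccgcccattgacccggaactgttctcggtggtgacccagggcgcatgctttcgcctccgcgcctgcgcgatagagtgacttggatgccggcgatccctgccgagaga
Psmd12: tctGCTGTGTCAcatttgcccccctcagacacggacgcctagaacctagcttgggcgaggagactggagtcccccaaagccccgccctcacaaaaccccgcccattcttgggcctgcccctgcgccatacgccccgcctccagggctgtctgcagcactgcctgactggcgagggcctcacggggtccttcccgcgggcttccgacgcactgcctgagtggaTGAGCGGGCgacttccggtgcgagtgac
Psmb6: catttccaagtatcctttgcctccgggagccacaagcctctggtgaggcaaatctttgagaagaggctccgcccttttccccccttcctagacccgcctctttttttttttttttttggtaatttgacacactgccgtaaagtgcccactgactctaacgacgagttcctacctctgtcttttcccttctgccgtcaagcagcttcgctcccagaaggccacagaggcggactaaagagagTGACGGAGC
Psmb11: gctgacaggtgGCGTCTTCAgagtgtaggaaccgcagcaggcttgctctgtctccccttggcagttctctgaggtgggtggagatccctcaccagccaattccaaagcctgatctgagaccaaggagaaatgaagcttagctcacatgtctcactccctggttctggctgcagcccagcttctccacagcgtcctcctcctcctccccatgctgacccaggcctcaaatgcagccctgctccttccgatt
Psmd9: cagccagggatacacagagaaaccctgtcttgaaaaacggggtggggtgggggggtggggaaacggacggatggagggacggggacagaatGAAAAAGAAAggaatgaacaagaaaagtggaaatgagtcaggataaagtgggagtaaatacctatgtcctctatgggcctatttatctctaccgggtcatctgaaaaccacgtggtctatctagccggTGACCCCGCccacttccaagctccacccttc
Among these 5 chosen genes the antioxidant core stands before genes that were lower and before genes that were higher, and Psmc5 lacks it in this window. The pattern is loose and was present for 45.0% of all genes searched. Whether the antioxidant core bears on the differences was not tested.

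The ATPases held 3 of the 6 proteasome genes with the lowest differences. Psmc2, an ATPase of the base ring, stood at 1.14 and 0.54 in young 1 and young 2 and at -1.44 and -0.70 in aged 1 and aged 2. Both aged pools lay below both young pools, and the difference was -1.91 ± 0.45 (3.77-fold lower; adjusted p = 0.271 with limma). Its 3 probe sets were all lower, by -2.64 to -0.71.

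Psmc3, another ATPase of the ring, stood at 0.64 and 0.85 in the young pools and at -0.94 and -0.64 in the aged pools. The ages were apart by more than the pools of either age differed, with a difference of -1.53 ± 0.37 (adjusted p = 0.277 with limma). Leaving out any 1 array gave -1.68 to -1.39. Psmc5 stood at 0.98 and 0.55 in the young pools and at -0.55 and -2.24 in the aged pools, a difference of -2.16 ± 0.63 (adjusted p = 0.367 with limma). Much of its size came from aged 2, and without aged replicate 2 the difference was -1.32.

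The other 3 ATPases had smaller differences. Psmc1 stood at -0.83 ± 0.41 with no overlap between ages, but its probe sets ran from -2.02 to 0.35. Psmc6 stood at -0.71 ± 0.54 and its ages overlapped, with -0.06 without aged replicate 2. Psmc4 stood at -0.06 ± 0.66, with 0.50 and -0.50 in the young pools and 0.72 and -0.83 in the aged pools. In Psmc4 the pools numbered 2 were low and those numbered 1 high at either age, and its sign turned under quantile normalization, without young replicate 1, without aged replicate 2 and when its most variable probe set stood for it. The ATPase median was -1.54 when probe sets ending in _x_at or _s_at were left out and -1.86 when each gene was taken from its most variable probe set.

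The core beta subunits include the catalytic ones. Psmb6, which carries the caspase-like active site, stood at 0.76 and 0.46 in the young pools and at -0.46 and -1.73 in the aged pools. Both aged pools lay below both young pools, and the difference was -1.70 ± 0.53 (3.25-fold lower; adjusted p = 0.401 with limma). Without aged replicate 2 the difference was -1.07.

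Psmb7, which carries the trypsin-like site, stood at 1.01 and 0.35 in the young pools and at -0.67 and -0.35 in the aged pools. The ages did not overlap, and the difference was -1.19 ± 0.42 (adjusted p = 0.463 with limma). Psmb5, which carries the chymotrypsin-like site, stood at 0.30 and -0.08 in the young pools and at -0.46 and 0.08 in the aged pools. Its ages overlapped, and its difference of -0.30 ± 0.41 was smaller than the standard error and stood at -0.03 without aged replicate 1.

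Of the non-catalytic beta subunits, Psmb2 (-1.32 ± 0.65), Psmb3 (-1.17 ± 0.50) and Psmb4 (-0.46 ± 0.38) had no overlap between ages, while Psmb1 (-0.27 ± 0.59) did. In Psmb1, Psmb2 and Psmb3 the lowest array was aged 2, at -1.05, -1.57 and -1.30, and aged 1 lay at 0.54, -0.03 and -0.11. Without aged replicate 2, Psmb1 stood at 0.53, Psmb2 at -0.55 and Psmb3 at -0.57.

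Psmb11 was the beta gene that went the other way. It encodes the catalytic subunit of the thymoproteasome, a form made in cortical epithelial cells of the thymus. It stood at -0.44 and -0.45 in the young pools and at 0.44 and 1.21 in the aged pools, a difference of 1.27 ± 0.42 (2.42-fold higher; adjusted p = 0.439 with limma). It has 1 probe set, and since values are centred the data do not show whether its signal lay above background.

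Of the 3 immunoproteasome genes, Psmb10 and Psmb8 were lower without overlap between ages, while Psmb9 overlapped. Psmb10, which replaces Psmb7, stood at 0.35 and 0.36 in the young pools and at -1.02 and -0.35 in the aged pools, a difference of -1.04 ± 0.41 (adjusted p = 0.536 with limma). Psmb8, which replaces Psmb5, stood at 0.04 and 0.26 in the young pools and at -0.09 and -0.52 in the aged pools, a difference of -0.46 ± 0.38. Psmb9, which replaces Psmb6, stood at 0.37 and -0.58 in the young pools and at 1.09 and -0.37 in the aged pools. The ages of Psmb9 overlapped, its difference was 0.47 ± 0.63, and it stood at -0.26 without aged replicate 1 and at -0.01 without young replicate 2.

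Each immunoproteasome subunit was set against the constitutive subunit it replaces by the difference of their values within each array. Psmb9 minus Psmb6 was -0.39 and -1.04 in young 1 and young 2 and 1.55 and 1.36 in aged 1 and aged 2, a change of 2.17 ± 0.34. For these pair changes the ± is the ordinary standard error from the spread of the pools within each age, without limma's moderation. The ages did not overlap, and 2 pools against 2 allow no exact permutation p below 0.33, which is the value obtained (two-sided; 1 after Benjamini-Hochberg adjustment over 3 pairs). The change was 1.85 to 2.49 without any 1 array. Psmb10 minus Psmb7 changed by 0.15 ± 0.38 and Psmb8 minus Psmb5 by -0.16 ± 0.57, each with an exact permutation p of 1. In these pairs both subunits were lower on average in the aged pools, and the change was smaller than its standard error.

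**Figure D3:**
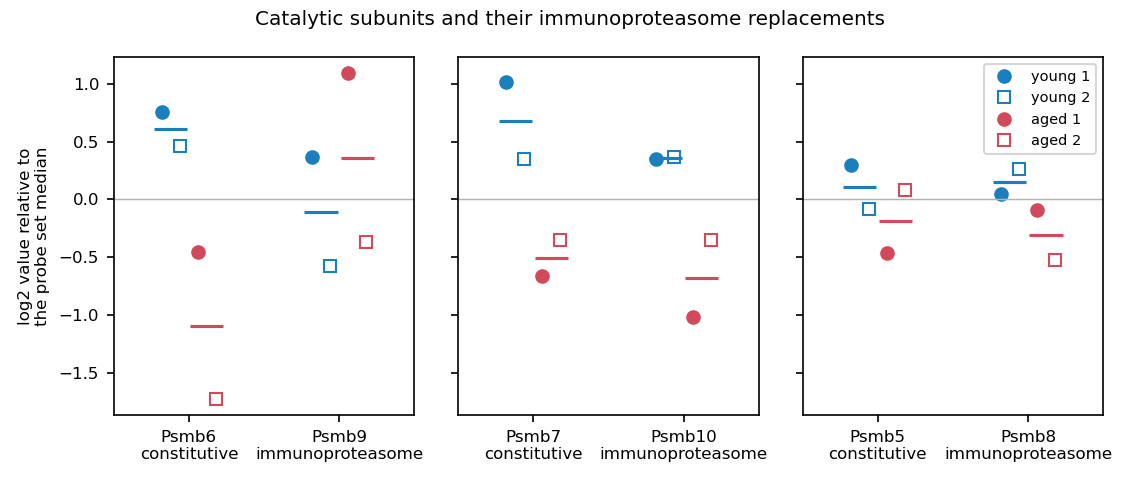
Log2 values on each array of the 3 constitutive catalytic subunits and of the immunoproteasome subunits that replace them; the short lines are the means of the 2 pools of an age. The Psmb6 values of the aged pools lie below the young ones while those of Psmb9 overlap, and in the other pairs both means are lower in aged pools.

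Among genes of the lid and base, the lid subunit Psmd8 had the smallest p of all proteasome genes. It stood at 0.82 and 1.03 in the young pools and at -1.08 and -0.82 in the aged pools. The pools of each age lay close together, and the difference was -1.87 ± 0.37 (3.65-fold lower; adjusted p = 0.196 with limma). Leaving out any 1 array gave -2.00 to -1.74.

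The lid scaffold gene Psmd12 stood at 0.58 and 0.75 in the young pools and at -0.58 and -2.04 in the aged pools, a difference of -1.97 ± 0.57 (3.93-fold lower; adjusted p = 0.358 with limma). Aged 2 was the lowest array, and without aged replicate 2 the difference was -1.24. Psmd6, also of the lid, stood at 1.08 and 0.40 in the young pools and at -0.52 and -0.93 in the aged pools, a difference of -1.47 ± 0.43 (adjusted p = 0.362 with limma). Both probe sets of Psmd6 were lower.

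Of the other lid genes, Psmd14, the enzyme that cuts ubiquitin chains from substrates, stood at -0.65 ± 0.36, Psmd13 at -0.78 ± 0.43 and Psmd11 at -0.53 ± 0.38, all with no overlap between ages. Psmd7, the partner of Psmd14, stood at -0.34 ± 0.46 and Psmd3 at -0.07 ± 0.65, with overlap in both. Psmd7 stood at -0.0064 without young replicate 1 and at 0.0051 without aged replicate 2. Psmd3 stood at -0.52 and 0.52 in the young pools and at 0.68 and -0.83 in the aged pools, and its sign turned under quantile normalization, without young replicate 2 and without aged replicate 2.

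The non-ATPase base subunits showed no common direction. Psmd1, a large scaffold of the base, stood at -0.19 and -0.07 in the young pools and at 0.53 and 0.07 in the aged pools, a difference of 0.43 ± 0.38 with no overlap between ages. Psmd2, the other scaffold and a docking site for shuttle proteins, stood at -0.53 ± 0.49, and Psmd4, a ubiquitin receptor, at -0.59 ± 0.49, both with overlap. Psmd2 stood at -0.0050 without young replicate 2 and Psmd4 at -0.034 without aged replicate 1. The 3 probe sets of Psmd4 ran from -2.45 to 0.76.

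Psmd5, Psmd9 and Psmd10 are chaperones of base assembly that leave the finished particle. Psmd9 stood at -0.29 and -0.29 in the young pools and at -0.10 and 1.19 in the aged pools, a difference of 0.84 ± 0.52, and its 3 probe sets were all higher. Aged 2 made most of that difference, which was 0.19 without aged replicate 2. Psmd5 stood at -1.49 ± 0.82, of which young 2 at 2.40 made most, and its difference was -0.30 without young replicate 2. Psmd10 stood at -0.67 ± 0.87 with overlap, and at 0.13 without young replicate 1 and 0.38 without aged replicate 2.

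The alpha ring showed the smallest differences. No alpha gene had an unadjusted p under 0.05 in limma, against 9.04% of all genes in either direction, a share at which 8 genes may well hold none. Psma2 and Psma4 had the smallest p-values. Psma2 stood at 0.99 and -0.24 in the young pools and at 0.24 and -0.92 in the aged pools, a difference of -0.72 ± 0.62, and its ages overlapped. The difference was -0.10 without young replicate 1, -0.14 without aged replicate 2, -1.30 without aged replicate 1 and -1.33 without young replicate 2. Psma4 stood at 0.17 and 0.06 in the young pools and at -0.06 and -0.60 in the aged pools, a difference of -0.45 ± 0.39 without overlap. Psma6 (-0.28 ± 0.36) was the other alpha gene without overlap.

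Psma5 (-0.64 ± 0.60) and Psma7 (-0.40 ± 0.59) were lowest in aged 2, at -0.98 and -1.13, while aged 1 lay at 0.63 and 0.35. Their differences without aged replicate 2 were 0.17 and 0.34. The 3 alpha genes with a sign opposite to the group's median differed by less than their standard errors. Psma1 stood at -0.29 and 0.07 in the young pools and at 0.12 and -0.22 in the aged pools (0.06 ± 0.38). Psma3 stood at -0.27 and 0.07, and at -0.02 and 0.00 (0.09 ± 0.37). Psma8, an alpha subunit of the testis, stood at -0.40 and 0.25, and at -0.24 and 0.24 (0.07 ± 0.43). All 3 turned to a lower value without young replicate 1, at -0.12 for Psma1, -0.07 for Psma3 and -0.25 for Psma8. Psma1 also turned without aged replicate 1 (-0.11) and Psma8 without aged replicate 2 (-0.16). Leaving out aged replicate 2 brought the core alpha median to -0.027, and taking each gene from its most variable probe set turned it to 0.10.

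Of the activators, which open the barrel without ATP, 2 were lower and 1 was not. Psme3, the nuclear PA28 subunit, stood at 0.00 and 0.36 in the young pools and at -0.72 and -0.93 in the aged pools. The difference was -1.01 ± 0.38 (adjusted p = 0.498 with limma). Its 3 probe sets differed by -2.16, -0.92 and 0.04. In the first, aged 1 and aged 2 stood at -3.04 and -0.10, and in the second at 0.73 and -2.57. The closeness of the aged pools, and so the small standard error, came from averaging probe sets that disagreed. The unadjusted p of Psme3 was 0.039 in limma and 0.15 in limma with a variance trend. Psme4, the large activator known as PA200, stood at 0.61 and 0.10 in the young pools and at -0.91 and -0.45 in the aged pools, a difference of -1.04 ± 0.41 (adjusted p = 0.543 with limma). Psme1, an interferon-inducible PA28 subunit, stood at 0.09 and -0.78 in the young pools and at 0.26 and -0.09 in the aged pools, a difference of 0.43 ± 0.45 with overlap, and at -0.01 without young replicate 2. The activator median was -0.70 when probe sets ending in _x_at or _s_at were left out and -2.16 when each gene was taken from its most variable probe set.

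Probe sets of a single gene often disagreed in size. Of the 22 genes with more than 1 probe set, 9 had all of them lower, 1 had all higher and 12 had both signs. In 8 of the 22 genes the probe sets lay more than 2 log2 units apart. The 6 probe sets of Psme4 ran from -2.88 to 0.47, with 3 lower and 3 higher. The 4 of Psmd13 ran from -2.66 to 0.17, and the 8 of Psmd11 from -1.72 to 0.66. Those of Psma5 ran from -1.62 to 1.03, with 2 lower and 1 higher. Over all 88 probe sets 62 were lower, 25 higher and 1 at 0. Their median was -0.44, and in 34 both aged pools lay below both young pools against 5 where they lay above. The shares over all probe sets were not computed, and over all genes they were 16.9% below and 19.9% above.

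**Figure D4:**
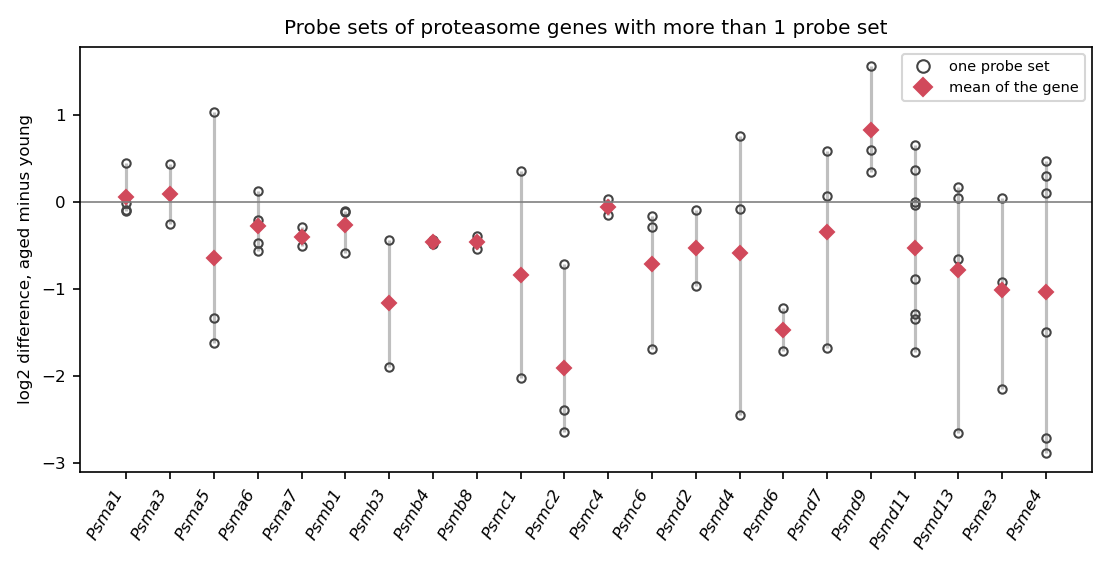
Difference aged minus young of each probe set (open circles) and of their mean (red diamonds) for the 22 proteasome genes with more than 1 probe set. In 8 genes, among them Psma5, Psmc1, Psmd4, Psmd13 and Psme4, the probe sets lie more than 2 log2 units apart and on both sides of 0.

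Genes that work with the proteasome showed a mixed picture, taken from lists chosen with earlier results of these data known. Of 16 listed ubiquitin genes and conjugation enzymes 10 were measured, none of them a ubiquitin gene. Among these 10 genes 7 were lower, 6 of them at an unadjusted p under 0.05 in limma, against 6.19% of all genes. The median was -1.16. The conjugating enzyme Cdc34, which builds chains with SCF ligases, stood at 1.69 and 1.35 in the young pools and at -1.35 and -1.73 in the aged pools, a difference of -3.05 ± 0.39 (adjusted p = 0.112 with limma). The conjugating enzymes Ube2g1 (-2.79 ± 0.51) and Ube2d1 (-3.21 ± 0.85) were also lower.

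Of 9 measured regulators of proteasome genes 4 were lower and 5 higher. Their median was 0.09, which turned to -0.05 without young replicate 1 and to -0.14 without aged replicate 1. Nfe2l1 stood at 1.01 and 1.46 in the young pools and at -1.05 and -1.01 in the aged pools. Both aged pools lay far below both young pools, and the difference was -2.27 ± 0.38 (4.82-fold lower; adjusted p = 0.152 with limma). Its relative Nfe2l2 stood at 0.86 ± 0.45, the Nfe2l2 inhibitor Keap1 at -1.89 ± 0.52, and Maff, a small partner of these factors, at 1.40 ± 0.52. Whether the lower Nfe2l1 bears on the lower subunit genes was not tested.

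Of 15 measured proteasome-bound and shuttle proteins 9 were lower and 6 higher. Their median was -0.54, and 1 gene was lower at an unadjusted p under 0.05 in limma, a share close to the 6.19% of all genes. That gene was Ubqln4, a shuttle for ubiquitinated proteins (-1.75 ± 0.51). The deubiquitinase Usp14 stood at 1.42 ± 0.66 and the proteasome adaptor Ecpas at -1.68 ± 0.78. The median of this list was -0.13 without aged replicate 2 and -0.31 without young replicate 1.

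The 6 measured assembly factors, a list without Psmd5, Psmd9 and Psmd10, were split evenly, 3 lower and 3 higher. Their median was 0.11, which turned to -0.32 without young replicate 2. Akirin2, which brings proteasomes into the nucleus, stood at -1.15 ± 0.43, while the core chaperones Psmg4 and Psmg1 stood at 0.85 ± 0.42 and 0.72 ± 0.68. Of 12 measured genes of MHC class I presentation, the pathway that uses the peptides of the immunoproteasome, 8 were higher and 4 lower. None had an unadjusted p under 0.05 in limma, against 9.04% of all genes in either direction. The median was 0.31. First by p came B2m (0.85 ± 0.36), the light chain of class I molecules, then the interferon regulator Irf1 (1.04 ± 0.70) and the class I activator Nlrc5 (0.53 ± 0.36). The median of this list was 0.06 without aged replicate 1.

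**Figure D5:**
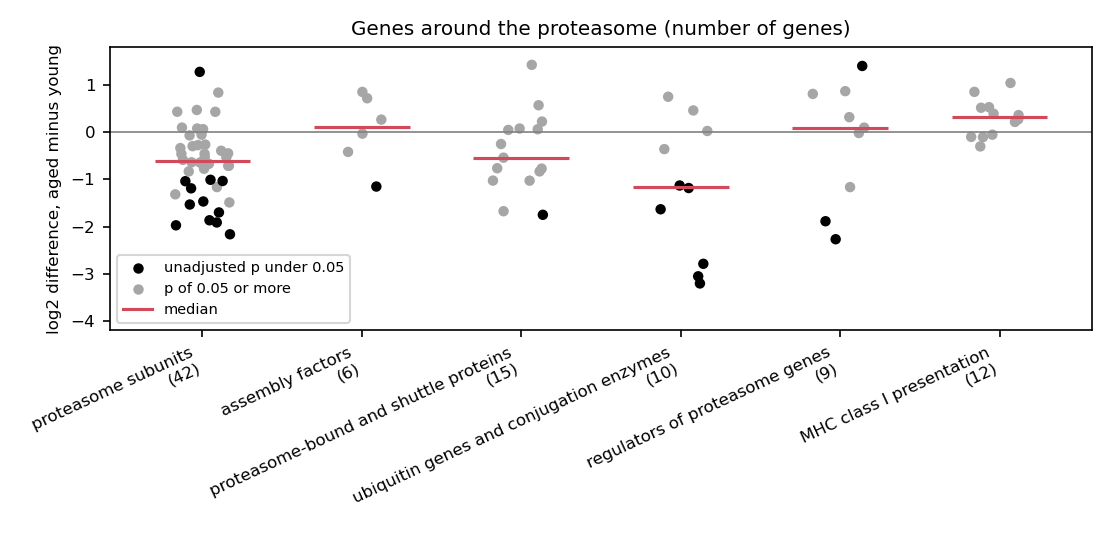
Differences aged minus young of the proteasome genes and of the genes of 5 related lists, each dot a gene (black, unadjusted p under 0.05 in limma), with the median as a red line. The medians run from -1.16 for ubiquitin genes and conjugation enzymes to 0.31 for MHC class I presentation, beside -0.62 for the proteasome. The 10 measured genes of the list at -1.16 are activating or conjugating enzymes, and none is a ubiquitin gene.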

How the data were processed

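Biotin-labelled RNA had gone through 2 rounds of T7 amplification, per the labels' protocols. The authors deposited log2 values of 45101 probe sets on 4 arrays, centred per probe set. The sources used here do not give the log base, background correction, probe summary or array normalization. Array medians ran from -0.07 to 0.05. Probe sets carried 1 gene symbol (34945), several (932) or none (9160); 64 were controls. Only those with 1 were used, with symbols updated by Entrez ID to GRCm38.p6 (34741 matched). limma 3.58.1 in R 4.3.3 (lmFit, eBayes without trend, two-sided) compared aged with young over 18193 genes with 2 residual and 3.56 prior degrees of freedom. The fit was also run on data simulated from its own variances with independent noise, which cannot test those assumptions. The members, lists and rules were chosen with earlier results of these data known. The labels call the pools independent, and 2 per age limit the precision. The p-values of limma set a difference against a variance that joins the spread between a gene's own pools with that of all genes. By rule, array values are given for the 2 genes of smallest p per group, every immunoproteasome and activator gene and those opposite in sign to their group's median; some others were added after their values were seen. The rule names the 3 genes of smallest p per related or marker list. Nfe2l2 was added, and marker lists other than fibre and satellite cell are given by counts and medians. Alternatives were the replicate block, quantile normalization, array centring, 2 choices of probe sets, a variance trend, symbols as annotated and leaving out each array. Plots used matplotlib 3.10.9.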

Additional observations from a re-analysis of the deposited data

How the results depend on the processing

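Across the 11 alternatives the number of proteasome genes lower in aged pools was 28 to 36 (34 as reported). Their median difference was -0.82 to -0.44. No proteasome gene passed the adjusted threshold under any of the alternatives. The count of 28 came without aged replicate 2, where 8 of the 42 genes changed sign. Aged 2 lay below aged 1 in 26 of the 42 genes (61.9%), against 46.4% of all genes. Without 1 array, group medians ran from -0.50 to -0.027 for core alpha, -1.05 to -0.56 for core beta, -0.68 to -0.25 for the immunoproteasome, -1.38 to -0.94 for the ATPases, -0.75 to -0.52 for lid and base and -0.91 to -0.78 for the activators. The count of lower genes at an unadjusted p under 0.05 was 4 to 11 without 1 array and 4 to 12 over all alternatives, and that of higher genes 0 to 2. When each gene was taken from its most variable probe set, medians were 0.10 for core alpha, -1.86 for the ATPases, -1.59 for lid and base and -2.16 for the activators, and 0 genes were higher at an unadjusted p under 0.05. Leaving out probe sets named _x_at or _s_at gave medians that were -1.54 for the ATPases and -0.70 for the activators. A variance trend in limma called 221 of all genes against 0. The cause of these shifts was not tested, beyond the fewer arrays or probe sets used. The labels do not say whether same-numbered pools were handled together, so a shared batch cannot be told. Their deviations from the age means correlated at 0.138 over 18193 genes and at 0.224 over the 42 proteasome genes, and a replicate block gave 8 lower proteasome genes at an unadjusted p under 0.05 in place of 11, with 1768 of all genes in place of 1645. With 1 array left out, the lone pool is assumed to vary like the other age. Dim probe sets could not be told from bright ones in centred values, so no filter on signal was applied.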
